A study of Mus musculus with 6 samples.

Results

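The 6 bone marrow arrays of this study were hybridised on 2 slides, and the genes and cell programs that differed between the slides are described here. The slide of each array was read from the barcode in the scanner file. Slide 1 carried 2 arrays, those of rHuEPO replicate 1 and of the untreated sample. Slide 2 carried the other 4, those of PBS replicates 1 and 2 and of rHuEPO replicates 2 and 3. The members are genes whose slide 1 array lay outside both slide 2 arrays, in the same direction, among the control arrays and again among the rHuEPO arrays. Such genes, called separated in both arms below, numbered 8242 of the 14853 genes tested. With so few arrays, part of the genes would meet this rule without any slide difference, so separation of a single gene is weak evidence.

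All mice were ISAM (Epo-/-::3.3K-Epo3'-Tg458) males of mixed strain aged 10 weeks, in which the erythropoietin gene is deleted and the Epo transgene of that name is carried, so controls and treated mice alike are models of anemia from a lack of erythropoietin. The rHuEPO samples were collected 6 h after an intraperitoneal dose of 3000 U/kg recombinant human erythropoietin, and the PBS samples 6 h after the vehicle. The untreated sample had no stated injection. The labels give replicate numbers but no animals, and the p-values below therefore reflect how far these samples differ among themselves, which may be technical.

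Slide and scan session fell together in the scanner headers. Among the control arrays, slide and the PBS injection cannot be told apart, because the untreated sample was alone on slide 1 and both PBS samples were on slide 2. Among the rHuEPO arrays the label is the same on both slides, and only 1 array was on slide 1. Whether the slides also held separate litters, days of collection or RNA preparations was not stated. Precision is limited by there being 6 arrays.

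Bone marrow RNA mixes many lineages. Erythroblasts supply globin and heme enzyme transcripts, granulocyte precursors supply granule proteases, and lymphoid, monocytic and stromal cells add smaller shares. Housekeeping programs such as ribosomes, respiration and protein folding are carried by all of them, and stress or interferon genes respond within hours to handling, injury or infection. In whole marrow RNA, fewer cells of a type and less RNA per cell cannot be told apart.

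The array was checked against defining marrow markers. All 8 erythroid, all 9 neutrophil and all 3 monocyte markers examined were well above background on all 6 arrays. On none of the arrays were the skeletal muscle markers Acta1 and Ckm or the fat droplet gene Plin1 well above background. Epo itself stayed dim throughout. Each array's 75th percentile signal ran from 220.7 to 264, and the share of gene spots well above background, 46.2% to 50.5%, ran by treatment arm and not by slide. The median local background around the gene spots did run by slide. It was 19 and 23 intensity units on the slide 1 arrays and 29 to 33 on the slide 2 arrays, and its part in the slide difference was not tested.

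Many genes moved together in both arms. The limma slide term over all 6 arrays passed an adjusted p of 0.05 for 1577 genes, of which 510 were higher on slide 1 (3.43% of genes tested) and 1067 were lower (7.18%). All 1577 were separated in both arms, but the test and the separation rule use the same readings, so this adds no support. Leaving out untreated replicate 1 or any 1 of rHuEPO replicates 1, 2 and 3 left 0 to 4 calls, and leaving out PBS replicate 1 gave 2401. Without the filter on dim probes 15 genes passed, and with normexp background correction none did, or 1826 once the local backgrounds that the scanner software marked as non-uniform had been replaced by each array's median, an alternative chosen after seeing the data. Over all genes tested, and without a test, both slide 1 arrays lay outside all 4 slide 2 arrays, whatever the treatment, in 41.8%. Part of that share would arise without a slide difference. With each array scaled to its median in place of the 75th percentile, the split of higher against lower calls moved from 32.3% and 67.7% to 15% and 85%. Treatment gave fewer calls in the same fit, where rHuEPO minus control passed for 11 genes (0.0741%) and had an unadjusted p under 0.05 for 1680 genes, against 4902 for slide.

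Without a test, 2849 genes (19.2%) were separated upward on slide 1 in both arms and 5393 (36.3%) downward, and 1268 were separated in opposite directions. Part of each of these counts would arise without a slide difference. The downward share of separated genes was 65.4%, and it was 55.3% after quantile normalization and 78.7% with median scaling. The median difference over all genes was -0.11 (log2) in each arm, so a list median is read against that value. With median scaling the median over all genes was -0.24, and with quantile normalization -0.03. Across genes the arm differences had a Pearson r of 0.633 and a Spearman rho of 0.661. These come from separate arrays in each arm, but genes are not independent replicates. The sign was the same for 77.2% of genes.

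**Figure D1:**
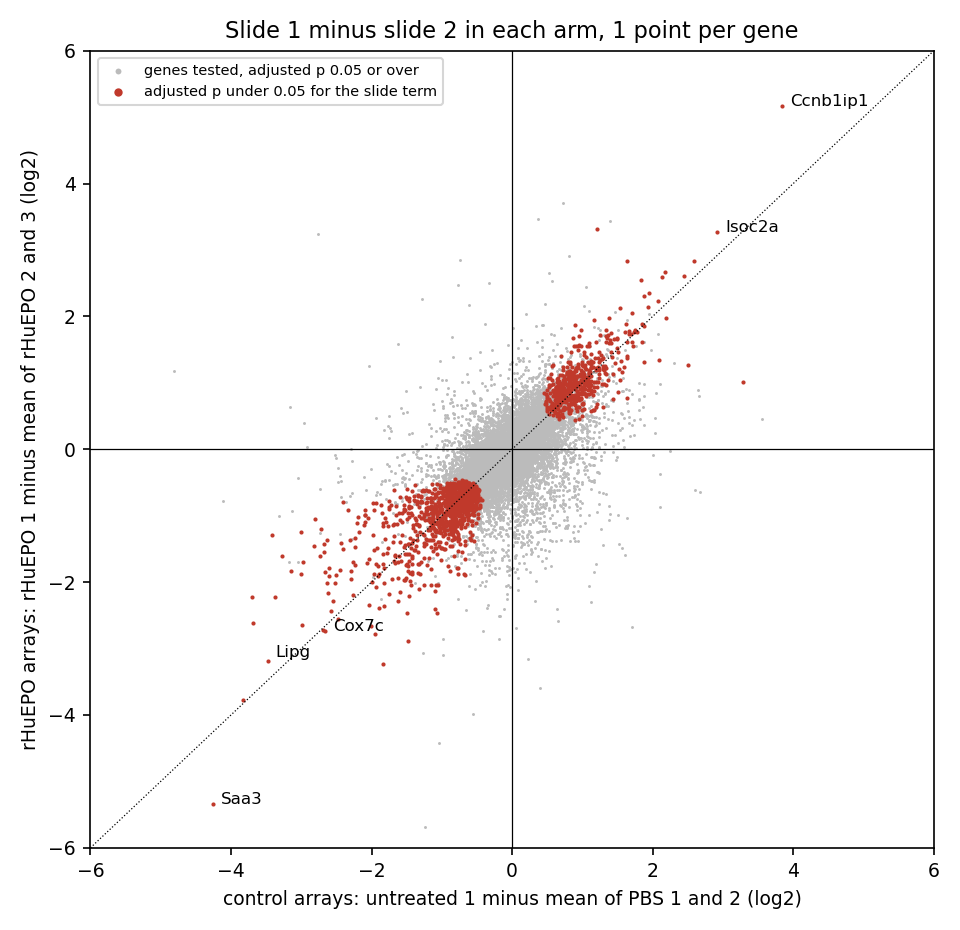
Slide 1 minus slide 2 for each of the 14853 genes tested, in log2 units, among the control arrays (horizontal axis) and among the rHuEPO arrays (vertical axis). Red points are the 1577 genes whose slide term passed; Ccnb1ip1 lies far up the diagonal and Saa3 far down it.

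Pairs of arrays show the size of this difference beside that between arrays of 1 slide. The 2 rHuEPO arrays of slide 2 differed by 2-fold or more at 264 genes, while rHuEPO replicate 1 differed from them at 1275 and 1474 genes. Among control arrays the contrast was smaller. The untreated array differed 2-fold from PBS replicate 1 at 1714 genes and from PBS replicate 2 at 1007, and the PBS arrays of slide 2 differed from each other at 937.

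The largest upward difference was at Ccnb1ip1, a ubiquitin ligase known from meiotic recombination. Its log2 signal relative to the array's 75th percentile was 0.10 on the untreated array and 0.52 on rHuEPO replicate 1. It was -3.86 and -3.62 on the PBS arrays and -4.53 and -4.77 on the other rHuEPO arrays. The readings differed by 4.51 on the log2 scale (SE 0.31, limma adjusted p = 0.012), with no overlap. On slide 2 its probe was well above background only on PBS replicate 2, so the size is a bound. With the 3 dim arrays set at the lowest signal counted as well above background, slide 1 was at least 15-fold higher, still the largest upward value of the 12 genes.

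Isoc2a, an isochorismatase-domain protein, read -0.64 and -0.60 on the slide 1 arrays and between -4.12 and -3.34 on the slide 2 arrays. The readings differed by 3.1 (SE 0.21, limma adjusted p = 0.012), again without overlap. On slide 2 it was well above background only on PBS replicate 1, and slide 1 was at least 7.55-fold higher by the same bound. Rnase4, a secreted ribonuclease, was well above background on all 6 arrays. It read 0.61 and 0.68 on slide 1 and -1.19, -1.92, -1.75 and -2.23 on slide 2, a difference of 2.42 (SE 0.27, limma adjusted p = 0.025). Kmt5b, a histone methyltransferase, read 0.07 and -0.17 on slide 1 and between -2.44 and -1.78 on slide 2, a difference of 2.16. Syne1, which encodes the nuclear envelope protein nesprin, read 3.49 and 3.24 on slide 1 and 0.98 to 2.15 on slide 2. Its 3 tested probes all had positive differences, from 0.50 to 2.00.

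The other upward genes ranged in slide difference from 1.73 to 2.37. They were Ces1d, a carboxylesterase, Ccdc186, Camk1d, a calmodulin-dependent kinase, Adap2, Rin2, Kif13b, a kinesin motor, and Bbs2, a subunit of the ciliary BBSome. Their limma adjusted p-values lay between 0.015 and 0.036. Ces1d, Kif13b and Bbs2 were each well above background on only 1 slide 2 array, with bounds of at least 3.01-fold, 2.84-fold and 3-fold.

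Saa3, an acute-phase serum amyloid A protein, had the largest downward difference. It read -4.31 on the untreated array and -2.87 on rHuEPO replicate 1. It read 0.94 and -1.03 on the PBS arrays and 2.40 and 2.54 on rHuEPO replicates 2 and 3. The readings differed by -4.80 on the log2 scale (SE 0.55, limma adjusted p = 0.026), with no overlap. Saa3 was not well above background on the untreated array, and with that array at the lowest signal so counted slide 1 was at least 23.8-fold lower. Ambp, the precursor of the protease inhibitor bikunin, read -3.59 and -2.37 on slide 1 and -1.59 to 0.50 on slide 2, a difference of -2.71 (SE 0.37, limma adjusted p = 0.027).

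Prok2, a secreted prokineticin expressed by neutrophils, was bright on every array. It read 0.28 and 0.64 on slide 1 against 2.66, 2.86, 3.36 and 3.04 on slide 2, a difference of -2.52 (SE 0.16, limma adjusted p = 0.011). Both of its tested probes were lower, by 2.52 and 2.86. Hspa1a, an inducible heat shock chaperone with a near-identical copy in Hspa1b, read -2.35 and -2.14 on slide 1. It read -1.01 and -0.03 on the PBS arrays and 1.36 and 0.82 on the rHuEPO arrays of slide 2. The difference was -2.53 (SE 0.42, limma adjusted p = 0.031).

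The other 8 downward genes were not well above background on either slide 1 array, so their differences are bounds. A bound sets the slide 2 mean against the higher, on each slide 1 array, of the gene's own signal and the lowest signal counted as well above background there. Cox7c, a subunit of cytochrome c oxidase, was at least 6.31-fold lower on slide 1. Zfp638 was at least 5.06-fold lower, Lipg, the endothelial lipase, at least 2.91-fold, and Gpld1, a phospholipase that releases anchored surface proteins, at least 2.88-fold. Tlr4, the receptor for bacterial lipopolysaccharide, was at least 2.75-fold lower. The smallest bounds were those of Rpl39l (2.48-fold), Entpd7 (2.43-fold) and Fabp7 (1.70-fold). All 8 entered the test through slide 2 alone. Testing required 3 arrays well above background and slide 1 held only 2, so genes dim on all of slide 2 were never tested. The limma adjusted p-values of the 8 genes, which test the readings and not the bounds, lay between 0.0059 and 0.043. Lipg had the smallest.

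**Figure D2:**
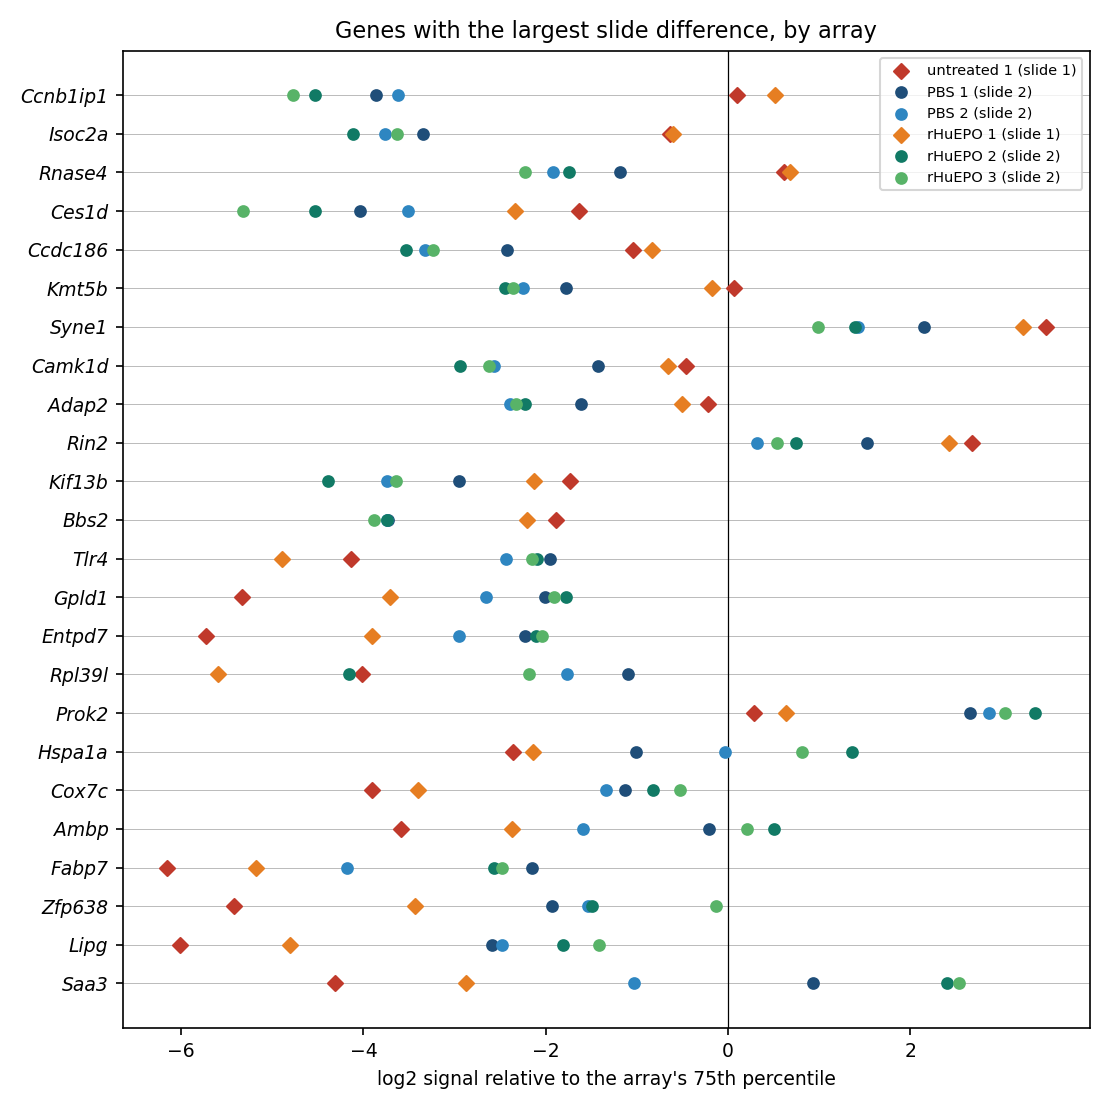
Log2 signal relative to each array's 75th percentile for the 12 genes per direction with the largest slide difference that passed. Diamonds are slide 1 arrays and circles slide 2 arrays; both diamonds lie outside all 4 circles in 23 of the 24 genes, the exception being Rpl39l.

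A caution on probes applies to all these genes. Of the 421 genes that passed and had several tested probes, 255 had probes of 1 sign, against 2086 of the 3798 such genes in the whole table. Only 9 of the 24 genes above were well above background on all 6 arrays.

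Gene lists of marrow cell types and functions placed these differences in programs. The 46 lists held 940 members, and 834 of these were tested. Of the rest, 72 were too dim and 34 lacked a matched probe. In 18 lists the median slide difference exceeded 0.2 in size in each arm with the same sign, 13 lower and 5 higher on slide 1. That limit was set around 0. Taken relative to the median of all genes, it gave 10 lower and 8 higher lists. The heat shock, secondary granule and proteasome lists then fell short of it, and the erythroid transcription factor, globin and plasma cell lists passed it. For 14 of the 18, the slide 1 array's list score also lay outside both slide 2 arrays in each arm. These were the 13 lower lists and the T and NK cell list. List medians and counts below are descriptions, to be read against the shares of all genes given above.

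**Figure D3:**
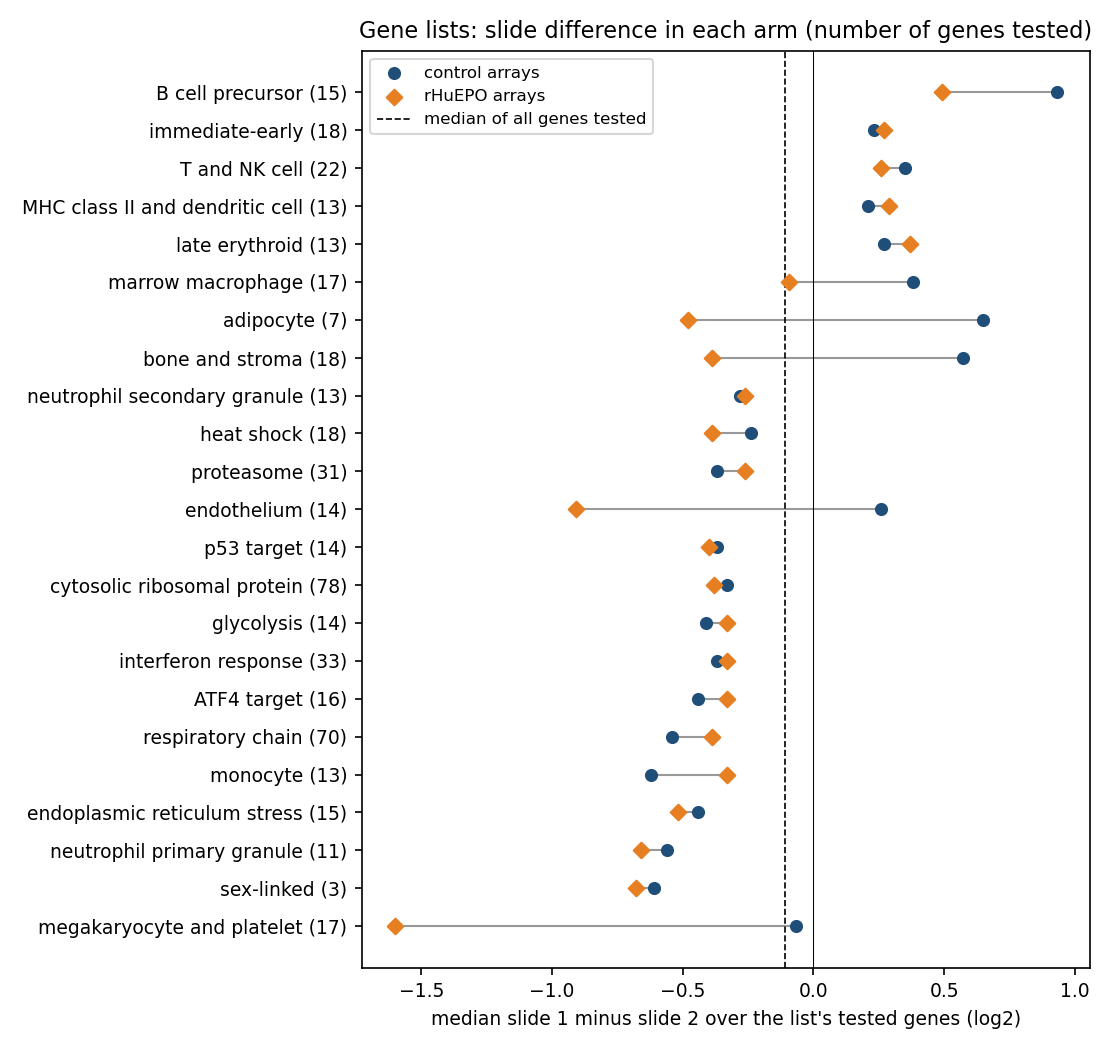
Median slide 1 minus slide 2 over the tested genes of each list, in log2 units, among control arrays (circles) and rHuEPO arrays (diamonds), with the number of genes tested in brackets. The dashed line is the median of all genes, -0.11; most lists have both points on the same side of it, while the adipocyte, bone and stroma, endothelium and marrow macrophage lists have the arms on opposite sides of 0.

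Respiratory chain subunits were lower on slide 1. The list's median was -0.39 among rHuEPO arrays and -0.54 among control arrays. Over both arms it was -0.46, and -0.21 after quantile normalization, where the median of all genes was -0.03. Of 70 tested subunits, 18 passed lower (25.7% of the list against 7.18% of all genes). In both arms 61 were separated downward (87.1%, against 36.3% of all genes). Besides Cox7c, which entered the test through slide 2 alone, the complex I subunits Ndufc1, Ndufab1 and Ndufa4 had the smallest p. Ndufc1 read 3.35 and 3.46 on slide 1 and 4.35 to 4.64 on slide 2, a difference of -1.10 (limma adjusted p = 0.027). Ndufab1 differed by -1.21 and Ndufa4 by -0.84. Sdha, chosen after its value was seen as the only subunit that passed in the other direction, was higher by 0.63.

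Cytosolic ribosomal proteins had medians of -0.38 and -0.33 in the rHuEPO and control arms. Of 78 tested, 67 were separated downward (85.9%, against 36.3% of all genes). Their median over both arms, -0.34, came to -0.065 after quantile normalization, close to that of all genes. Only 6 passed (7.69% of the list, near the background share). Rps3a1 differed by -1.15, Rps19, a subunit mutated in inherited anemia, by -0.69, Rpl31 by -0.68 and Rpl24 by -0.61. Many of these genes have processed pseudogene copies that can share a probe. Proteasome subunits had medians of -0.26 and -0.37. Of 31 tested, 22 were separated downward (71%, against 36.3% of all genes) and 5 passed (16.1%, against 7.18%). Quantile normalization brought the list's median over both arms from -0.31 to -0.074. Those that passed were the core subunits Psma7 (-0.82), Psma5 (-0.59), Psma1 (-0.73) and Psma3 (-0.63, named after its value was seen) and the ATPase Psmc5 (-0.67).

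Signal strength moved with slide as well, and these lists hold bright genes. With the genes in 5 equal groups from dimmest to brightest, the median slide difference ran 0.03, -0.03, -0.06, -0.15 and -0.26, and it fell from group to group in each arm. In the brightest 5% of genes it was -0.32. On the log2 scale relative to the 75th percentile, the ribosomal list's median brightness was 7.48, above the 6.16 of that 5%, and its median difference of -0.34 was close to theirs. The respiratory chain list, with a brightness of 5.08, had a median of -0.46. Among the spike-in controls, which contain no marrow RNA, those of the bright range were also lower on slide 1, by 0.49, 0.27 and 0.23, while the brightest differed by -0.08. Shorter genes were lower too. In 5 equal groups by genomic length the shortest genes had a median of -0.19 and the longest -0.05. The part of brightness or length in the list differences was not tested.

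**Figure D4:**
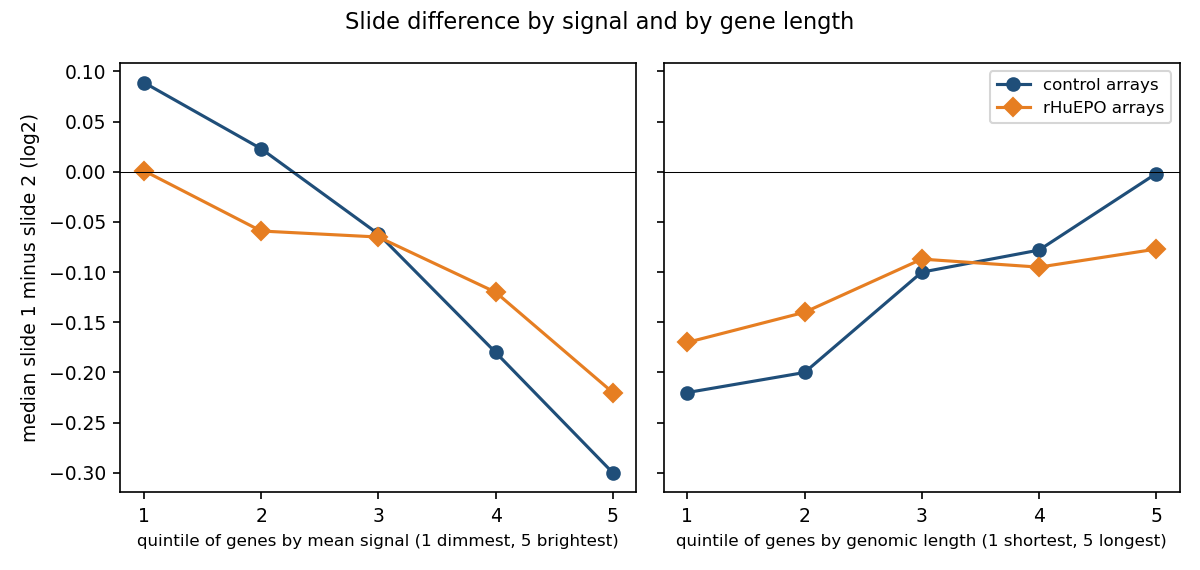
Median slide 1 minus slide 2 (log2) in quintiles of the tested genes, by mean signal over the 6 arrays (left) and by genomic length (right), for control and rHuEPO arrays. The medians fall toward bright genes in both arms and toward short genes.

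Protein folding and stress programs were lower on slide 1. Endoplasmic reticulum stress genes had medians of -0.52 and -0.44 in the rHuEPO and control arms. Of 15 tested, 11 were separated downward (73.3%, against 36.3% of all genes) and 4 passed (26.7%, against 7.18%). These were Herpud1, which aids degradation of misfolded proteins (-0.98), the co-chaperone Dnajb9 (-0.93), Hspa5, the main chaperone of the compartment (-0.83), and Hyou1 (-0.70). Hspa5 read 4.28 and 5.27 on the slide 1 arrays and 5.28 to 5.86 on slide 2. The slide 1 array was thus the lower in each arm, although rHuEPO replicate 1 was about level with PBS replicate 2.

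Targets of the stress factor ATF4 had medians of -0.33 and -0.44. Of 16 tested, 12 were separated downward (75%, against 36.3% of all genes) and 4 passed (25%, against 7.18%). Vldlr, a lipoprotein receptor among the 4, entered the test through slide 2 alone. It was not well above background on slide 1 and was at least 2.23-fold lower. Atf5 differed by -0.85, the mitochondrial folate enzyme Mthfd2 by -0.94, and Phgdh, which starts serine synthesis, by -0.63. The heat shock list had medians of -0.39 and -0.24, with 11 of 18 separated downward (61.1%, against 36.3% of all genes). Its median over both arms, -0.29, came to -0.081 after quantile normalization. Besides Hspa1a, Hspe1, a mitochondrial co-chaperonin, passed (-0.87). Hsp90aa1 (-0.55, limma adjusted p = 0.052) and Chordc1 (-0.56, limma adjusted p = 0.064) did not. The probes of Chordc1 differed in sign.

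Interferon-stimulated genes had medians of -0.33 and -0.37 over 33 tested, and 5 passed, all lower (15.2%, against 7.18% of all genes). The median over both arms was -0.38, and -0.20 after quantile normalization. Ifit1, an antiviral RNA-binding protein, read -2.86 on the untreated array against -1.27 and -1.08 on the PBS arrays. It read 0.61 and 0.12 on rHuEPO replicates 2 and 3 and -0.94 on rHuEPO replicate 1, so the latter was above every control array but below its rHuEPO partners. Its slide difference was -1.49 (SE 0.20, limma adjusted p = 0.027). The nucleic acid sensor Zbp1 differed by -1.12, the immunity GTPase Iigp1 by -1.28, and Parp14 by -0.72, though another probe of Parp14 differed by only -0.02. Oas2, named after its value was seen, differed by -1.12. In all, 15 of the 33 were separated downward (45.5%, against 36.3% of all genes) and 3 upward.

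In the p53 and glycolysis lists no gene passed the limma test. The p53 medians were -0.40 and -0.37 over 14 genes, with 6 separated downward (42.9%, not far from the 36.3% of all genes). The cell cycle inhibitor Cdkn1a had a difference of -0.92 (limma adjusted p = 0.051) and the death effector Bax one of -0.52 (0.055). Zmat3 and Plk3 had -0.49 and -0.64. The glycolysis medians were -0.33 and -0.41 over 14 genes, with 11 separated downward (78.6%, against 36.3% of all genes). The list's median over both arms went from -0.37 to -0.11 after quantile normalization. Hexokinase Hk2, enolase Eno1, Tpi1 and Pfkl had differences between -0.75 and -0.55, with limma adjusted p-values from 0.061 to 0.12.

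Granule and monocyte gene lists had negative medians, and no member of the granule or mature neutrophil lists passed. Prok2, the neutrophil-expressed gene given above, passed but was not in those lists. The primary granule list, of proteins made by promyelocytes, had medians of -0.66 and -0.56. Of its 11 tested genes, 7 were separated downward (63.6%, against 36.3% of all genes), though none passed the limma test. Its median over both arms, -0.61, came to -0.35 after quantile normalization. The serine proteases Prss57, Prtn3 and Ctsg had differences of -0.86, -0.92 and -0.61, with limma adjusted p-values from 0.091 to 0.12. Ms4a3, a marker of granulocyte and monocyte progenitors, had -0.74. Prtn3 read 3.90 and 4.08 on slide 1, 5.43 and 4.26 on the PBS arrays, and 4.85 and 5.09 on the other rHuEPO arrays. PBS replicate 2 was close to slide 1, and PBS replicate 1 was the highest. Secondary granule genes, which mark the later myelocyte stage, had medians of -0.26 and -0.28, and their median over both arms, -0.22, turned to 0.06 after quantile normalization. Lcn2, an iron-scavenging lipocalin of neutrophils, had -0.68 (limma adjusted p = 0.052). Orm1, Ngp and Pglyrp1 had -0.58, -0.40 and -0.48 and did not pass. The mature neutrophil list had medians of -0.038 and -0.25 over 22 genes and missed the size limit. Of the other neutrophil markers, S100a9, Camp and Ltf had the smallest differences, -0.08, -0.20 and -0.23, beside the -0.11 of all genes. Mpo, S100a8, Retnlg, Mmp8 and Elane had -0.32, -0.33, -0.28, -0.305 and -0.76. All of these but Mpo were separated downward, and none passed.

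The monocyte list had medians of -0.33 and -0.62, with 10 of 13 genes separated downward (76.9%, against 36.3% of all genes). Its median over both arms went from -0.49 to -0.21 after quantile normalization. Ccr2, the receptor that lets monocytes leave the marrow, passed. It read -0.80 and 0.11 on slide 1, 1.99 and 1.20 on the PBS arrays, and 1.67 and 1.55 on the other rHuEPO arrays. Its difference was -1.95 (SE 0.30, limma adjusted p = 0.029), without overlap. Vcan had -2.0 without passing (0.066), and Fn1 had a difference in the other direction, 1.53 (0.056), with 1 of its 3 probes near 0. The defining monocyte genes Ly6c2 and Csf1r had -0.17 and -0.39 with limma adjusted p-values of 0.59 and 0.39.

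The T and NK cell list had medians of 0.26 and 0.35, with 12 of 22 tested genes separated upward (54.5%, against 19.2% of all genes). Bcl11b, a T lineage transcription factor, and Il2rb, a cytokine receptor chain of T and NK cells, passed (1.22 and 0.59, limma adjusted p = 0.045 for each). Il2rb read 2.06 and 2.21 on slide 1 and 1.39 to 1.68 on slide 2. The receptor chains Cd3e and Cd3d had 0.45 and 0.39 and did not pass, with limma adjusted p-values of 0.10 and 0.11. The marker Cd8a had 0.12 (limma adjusted p = 0.61) and was not separated, and the marker Ncr1 was too dim to test.

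Precursor B cell genes had the largest positive list medians, 0.49 and 0.93, but no member passed the limma test. Only 3 of 15 were separated upward (20%, near the 19.2% of all genes). PBS replicate 1 stood apart. The pre-B receptor component Vpreb2 read 1.39 on the untreated array and 1.49 on PBS replicate 2 but -1.69 on PBS replicate 1. It read 0.57 on rHuEPO replicate 1 and -0.80 on each of the other rHuEPO arrays. The list score was -1.42 on PBS replicate 1, between -0.34 and 0.10 on the rHuEPO arrays, 0.87 on the untreated array and 1.00 on PBS replicate 2. Among control arrays the untreated array therefore lay between the 2 PBS arrays. The B lineage factors Ebf1, Pax5 and Lef1 had differences of 1.23, 1.04 and 0.97, with limma adjusted p-values of 0.28 to 0.31.

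The same order of the control arrays recurred in 3 other upward lists, namely the antigen presentation, late erythroid and immediate-early lists, where the untreated array also lay between the PBS arrays. Of 13 antigen presentation and dendritic cell genes, Ciita, the master regulator of MHC class II genes, passed. It read 1.46 and 1.74 on slide 1 and 0.11 to 0.66 on slide 2 (difference 1.22, limma adjusted p = 0.027). Its targets H2-Aa and H2-Ob had 1.12 and 1.27 and the plasmacytoid dendritic cell receptor Siglech 0.84, none passing. H2-Aa had 1 of 2 probes near 0.

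Late erythroid genes had medians of 0.37 and 0.27 with none passing, and 4 of 13 were separated upward (30.8%, against 19.2% of all genes). The median over both arms was 0.24, and 0.51 after quantile normalization. Car1, an erythroid carbonic anhydrase, had 0.98, Bpgm, which makes the ligand that lowers oxygen affinity, 0.63, the mitophagy receptor Bnip3l 0.46 and Trim10 0.45, with limma adjusted p-values from 0.11 to 0.24. None of the 8 erythroid markers passed either. Gata1, the main erythroid transcription factor, had 0.65 (limma adjusted p = 0.15) and was separated upward. Alas2, the first enzyme of erythroid heme synthesis, had 0.35 (limma adjusted p = 0.39). Hba-a1, Hbb-bt, Slc4a1, Klf1 and Tfrc had differences from -0.10 to 0.28, with limma adjusted p-values from 0.40 to 0.96.

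Immediate-early genes had a positive median, 0.27 and 0.23, yet their passing members were mostly lower. Klf2, a quiescence factor of lymphocytes and endothelium, differed by -1.0, Maff by -0.86 and Ier3 by -1.35. Zfp36, which destabilises cytokine messages, was higher by 1.01. Zfp36 read 2.85 and 3.14 on slide 1 and 1.85 to 2.23 on slide 2. Another probe of Klf2 differed by only -0.10.

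Of the Y-linked genes, Uty was well above background on none of the arrays, and the X-linked Xist was so on 1. The 3 Y-linked genes tested were well above background on all 6 arrays. Eif2s3y, Ddx3y and Kdm5d were all separated downward. Eif2s3y, a translation initiation factor subunit, read 0.77 and 0.61 on slide 1 and 1.27 to 1.44 on slide 2 (difference -0.64, SE 0.13, limma adjusted p = 0.039). Ddx3y, an RNA helicase, had -0.79 and Kdm5d, a histone demethylase, -0.60, with limma adjusted p-values of 0.062 and 0.056.

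**Figure D5:**
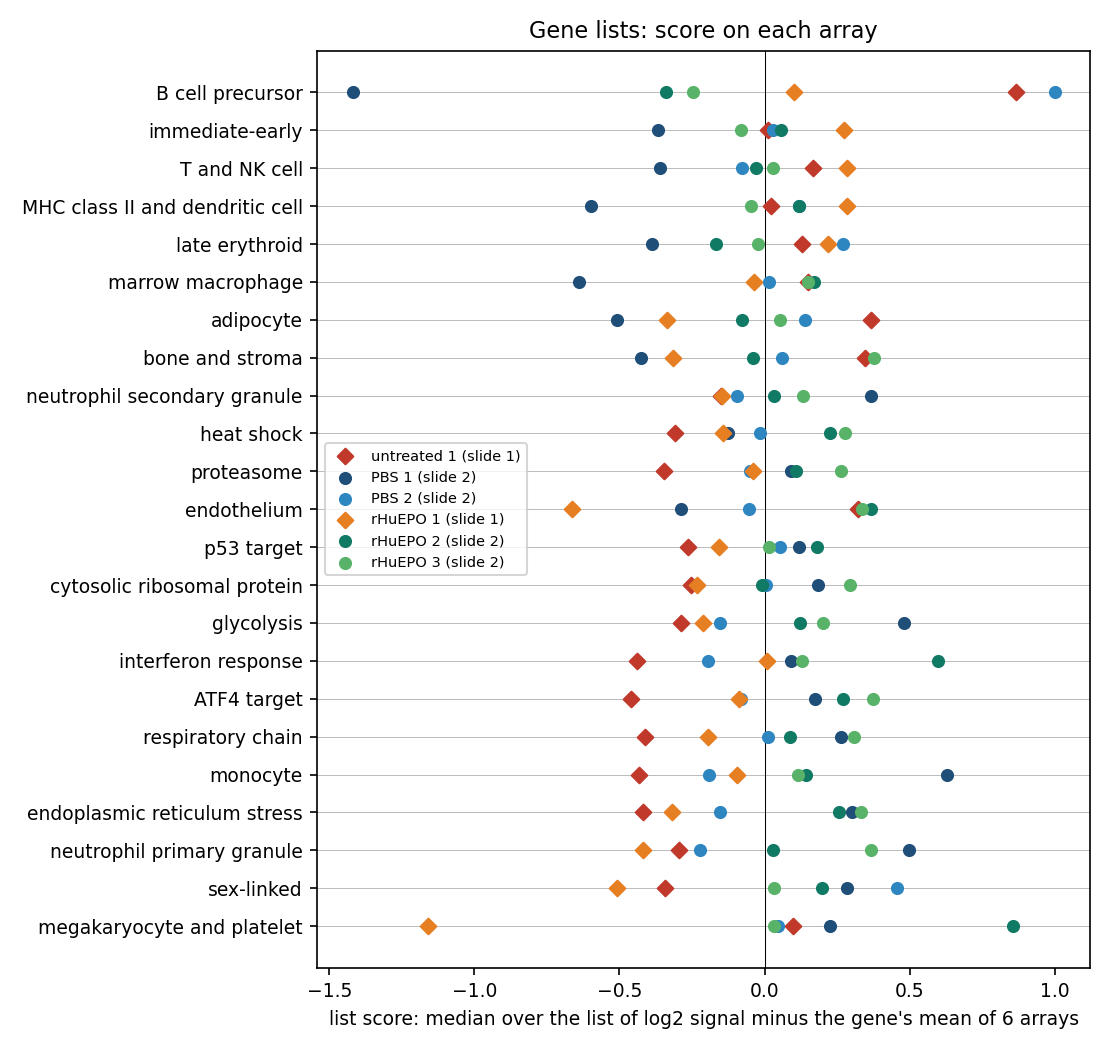
Score of each list on each array, the median over its tested genes of the log2 signal minus the gene's mean of the 6 arrays. Diamonds are slide 1 and circles slide 2; PBS replicate 1 lies lowest for the B cell precursor list and highest for the primary granule and monocyte lists, and rHuEPO replicate 1 lies lowest for megakaryocyte genes.

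The other 28 lists fell below the size limit or differed in sign between the arms. Among them were globin, heme synthesis, red cell membrane, JAK2-STAT5 target and DNA replication genes, with medians over both arms from -0.20 to 0.13. Of 15 stem and progenitor cell genes tested, 4 were separated in each direction (26.7%, against 19.2% of all genes upward and 36.3% downward). In each direction 1 passed (6.67%, against 3.43% of all genes upward and 7.18% downward). Flt3, a receptor of lymphoid and dendritic progenitors, was the one that passed upward. It read -1.39 and -1.47 on slide 1 and -2.88 to -2.52 on slide 2 (difference 1.30, limma adjusted p = 0.024). Procr, the endothelial protein C receptor, named after its value was seen, passed downward. It read -3.42 and -2.9 on slide 1 and -2.26 to -1.99 on slide 2 (difference -1.04, limma adjusted p = 0.032). The progenitor marker Cd34 had -0.50 and was separated downward without passing (limma adjusted p = 0.065).

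Within an arm, where 1 array stands against 2, few differences could pass. The spread in these tests came from the pairs of slide 2 arrays in both arms, and the lone slide 1 array was assumed to vary like them. Among rHuEPO arrays 1 gene passed (0.00673%), Ccnb1ip1 (limma adjusted p = 0.039). Its readings on rHuEPO replicates 2 and 3 were not well above background, and rHuEPO replicate 1 was at least 16.6-fold higher. In this arm 2703 genes had an unadjusted p under 0.05. Isoc2a, Kmt5b, Hdhd3 and Ncoa2 followed upward, and Cox7c, Prok2, Lipg and Tlr4 downward, with limma adjusted p-values from 0.11 to 0.13. Among control arrays none passed (0%), with 2350 genes at an unadjusted p under 0.05. Ccnb1ip1, Isoc2a, Heatr3, Foxq1 and Bbs2 led upward and Lipg, Cox7c, Mapt, Golga3 and Ccdc71l downward, with limma adjusted p-values of 0.091 to 0.13. Heatr3 read -0.36 on the untreated array and between -4.29 and -3.10 on the 5 others. It was not well above background on PBS replicate 1 or rHuEPO replicates 2 and 3, and Mapt was not so on either slide 1 array. The sizes of their differences are therefore uncertain. Each within-arm difference rests on a single slide 1 array. The probes of Golga3, Ccdc71l and Ncoa2 differed in sign. Over both arms, the probe used for Golga3 differed by -1.74 and another by 1.12. For Ccdc71l the values were -1.505 and 0.38. The probe used for Ncoa2 differed by 1.15 and another by -0.84.

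The interaction of slide and arm passed for no gene (0%) in limma, with 594 genes at an unadjusted p under 0.05. Its leading genes were Apol10a, Golga3, Cd300e, Hdhd3 and Zfp69 with the rHuEPO arm's difference above the control arm's, and Rbm12b1, Serpinh1, Adamts1 and Rgma with it below, at limma adjusted p-values of 0.85 to 0.91. Serpinh1, a collagen chaperone, read 0.77, 0.42 and 0.42 on the control arrays, -0.88 on rHuEPO replicate 1 and 1.03 and 1.16 on the other rHuEPO arrays. Apol10a read -1.73 on the untreated array, below both PBS arrays, and 2.02 on rHuEPO replicate 1, above both of its partners. The slide differences of the Golga3 probes had opposite signs, as given above.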

How the data were processed

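Cy3-labelled RNA from femoral bone marrow of 6 samples went onto 6 one-colour Agilent arrays, as the labels' protocols state. Per the file headers, Feature Extraction 10.7.3.1 made the scanner files, which hold each spot's intensity, and the processed intensity is already background-subtracted. The authors also deposited a table of log2 values, whose scaling the sources do not give. It tracked the scanner signals after 75th-percentile scaling and centring of each probe on its median, with slopes of 0.9988 to 1.001, which settles its direction. Its column medians ran from -0.103 to 0.117.

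The measure used here is the log2 processed signal less the 75th percentile of that array's gene spots, after 1639 control spots and outlier spots were left out. Testing required a probe to be well above background on 3 or more arrays (19590 of 41174 probes), and a gene was represented by its brightest such probe. Accessions were matched to RefSeq (GRCm38.p6), which named 64.8% of the probes and 11211 of the 14853 genes tested. The array design uses another build, so no coordinates are given. Slides were read from the array barcodes in the headers. In R 4.3.3 with limma 3.58.1 (lmFit, eBayes, two-sided, Benjamini-Hochberg threshold 0.05) the slide difference was fitted with arm (rHuEPO or control) and slide as terms. A second fit with 4 cells gave the difference within each arm and their interaction. The fits were tested on simulated data.

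The lists and genes were chosen with earlier results of these data known. Genes named are the 12 per direction with the largest difference that passed and were separated in both arms (unnamed, clone, predicted and pseudogene entries left out), the 4 members of each described list with the smallest p, and those with the smallest p within an arm or for the interaction. A list was described when its median exceeded 0.2 in size in each arm with the same sign. Normexp was run on median signals, since the mean signal was not used here. Other settings tried were quantile and median scaling, other filters, the deposited table, other priors, all probes, other terms and leaving out each array. Some genes that the rule names are not reported here.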

Additional observations from a re-analysis of the deposited data

Results flagged for a closer look

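In 4 lists the slide 1 array lay outside both slide 2 arrays in opposite directions in the 2 arms, higher among control arrays and lower among rHuEPO arrays. The difference between the arms was not tested for lists. The medians were 0.38 and -0.094 for marrow macrophage genes, 0.57 and -0.39 for bone and stroma, 0.26 and -0.91 for endothelium, and 0.65 and -0.48 for adipocytes, control first. Emcn, an endothelial sialomucin, read -0.73 on the untreated array against -1.50 and -1.21 on the PBS arrays, but -1.91 on rHuEPO replicate 1 against -0.79 and -0.70 on its partners. Cdh5, the endothelial cadherin, read -1.89 against -2.15 and -1.99, then -2.38 against -1.40 and -1.41. Cxcl12, a chemokine of marrow stroma, read 5.46 against 4.46 and 4.92, then 4.67 against 5.29 and 5.30. Vcam1, an adhesion molecule of marrow macrophages, read 3.55 against 2.69 and 2.94, then 3.05 against 3.19 and 3.1. Cd163 and Marco of the same list did not share that order. The hemoglobin scavenger receptor Cd163, the member of its list that passed, differed by -0.60 among control arrays and -1.25 among rHuEPO arrays (limma adjusted p = 0.039 over all 6), and Marco by -0.17 and -2.51. Adipoq, the fat cell hormone adiponectin, read 2.24 against 0.60 and 1.60, then 1.13 against 1.28 and 1.92.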

How the results depend on the processing

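The count of 1577 genes rested on few arrays. Without 1 array it ran from 0 to 2401. Lacking rHuEPO replicates 1, 2 or 3 it was 0, 3 and 4, lacking untreated replicate 1 it was 1, and lacking PBS replicate 1 it was 2401. With treatment as 3 levels it was 1, since only rHuEPO arrays then inform slide. It was 2955 with median scaling and 15 with no filter on dim probes, where 32288 genes were tested. Normexp as planned gave 0, with 430 genes at an unadjusted p under 0.05, and 4364 separated genes in place of 8242. There, 28 spots of non-uniform local background on PBS replicate 2, reaching 62790.5 units, set that array's fit. With them replaced by the array's median, an alternative added after seeing the data, 1826 genes passed and 7950 were separated. The other settings gave 1271 to 1987. The rHuEPO-array count of 1 became 0 with quantile normalization, median scaling, either normexp or the filter on all 6 arrays, 68 with no filter and 2 with an intensity trend, where the control-array count became 1. The interaction count was 0 throughout.

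The replicate block gave 0. PBS and rHuEPO share numbers 1 and 2, whose deviations from the mean of their group correlated at -0.07 and -0.16. These values cannot decide whether equal numbers pair samples, because rHuEPO replicate 1 was on slide 1 and both PBS arrays were on slide 2. With only 2 PBS arrays, the 2 values are also not separate checks. The labels state no pairing, and the main fit left the numbers out.

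All 24 genes of largest difference kept their direction in each alternative that tested them. They were picked from these same data for size and separation, so a change of direction was unlikely and this adds no support. Of the 24, 0 passed with planned normexp or the replicate block, and 3 passed with no filter on dim probes. The difference of Bbs2 fell as low as 0.11 and that of Kif13b as low as 0.15. Relative to all genes, quantile normalization turned the secondary granule median to 0.091 and brought ribosomal proteins from -0.23 to -0.03, proteasome from -0.2 to -0.039, heat shock from -0.18 to -0.047 and respiratory chain from -0.35 to -0.18. Planned normexp turned the secondary granule median to 0.24, heat shock to 0.033, glycolysis to 0.031, ribosomal proteins to 0.079 and proteasome to 0.12. It also turned Siglech to -0.032, Pax5 to -0.24 and Cd3e to -0.13. Unlike the list medians, the values of single genes here and below are not relative to all genes. Median scaling turned Cxcl12 to -0.053, where the median of all genes was -0.24. All probes averaged turned bone and stroma to -0.019. Treatment as 3 levels turned bone and stroma to -0.28, adipocytes to -0.37, Vcam1 to -0.094, Cxcl12 to -0.63 and Adipoq to -0.48. The block turned endothelium to 0.29 and Emcn to 0.37. Leaving out 1 array moved megakaryocyte genes between -1.5 and 0.045, bone and stroma between -0.28 and 0.68, endothelium between -0.8 and 0.37, adipocytes between -0.37 and 0.76, Vcam1 between -0.094 and 0.73, Cxcl12 between -0.63 and 0.77, Cdh5 between -0.98 and 0.18, Emcn between -1.17 and 0.63 and Adipoq between -0.48 and 1.14.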

Other observations

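Megakaryocyte and platelet genes set 1 array apart. Their list median was -1.6 among rHuEPO arrays and -0.065 among control arrays. The score was -1.16 on rHuEPO replicate 1, 0.86 on rHuEPO replicate 2, 0.03 on rHuEPO replicate 3 and between 0.05 and 0.23 for controls. Pf4, a platelet chemokine, read 4.66 on rHuEPO replicate 1, 6.60 and 6.07 on its partners, and between 5.65 and 6.19 in the control arm. Gp9, a subunit of the platelet von Willebrand factor receptor, read 2.36 against 4.26 and 3.63 on its partners, with 3.72 to 3.82 in the control arm. The arrays of slide 2 also differed from each other at these genes.

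Bone-forming cell genes varied within slide 2. Bglap, the osteoblast hormone osteocalcin, read 2.33 on the untreated array, -2.43 and 1.78 on the PBS arrays, 0.71 on rHuEPO replicate 1, and -1.59 and 1.42 on rHuEPO replicates 2 and 3. Col1a1, a bone collagen chain, read 3.17, then -0.31 and 2.57, then 1.75, 0.15 and 2.85 on the same arrays. PBS replicate 1 and rHuEPO replicate 2 were low for both genes.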
